A study of Mus musculus with 23 samples.

Results

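The FOXO transcription factors *Foxo1*, *Foxo3* and *Foxo4* and 7 genes that FOXO proteins are known to raise, *Insr*, *Igf1r*, *Pik3ip1*, *Sesn1*, *Sesn3*, *Ccng2* and *Bcl6*, were followed in tumor cells sorted from mouse lungs. Members were taken by gene symbol, and all 10 were found among the 35455 genes of the table that compares BRAFV600E with BRAFV600E/PI3KαH1047R tumors and among the 35454 genes of the table that compares BRAFV600E/PGC1αHet with BRAFV600E/PGC1αNull tumors. All 10 passed the filter on low values in both tables, a mean of at least 10 normalized counts.

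FOXO proteins are substrates of AKT, the kinase that PI3K activates through its lipid product. AKT phosphorylates them, they leave the nucleus bound to 14-3-3 proteins, and transcription of their targets drops, so the mRNAs of FOXO targets are widely read as an inverse measure of AKT activity. Several targets feed back on the pathway: *Insr* and *Igf1r* encode the receptors for insulin and IGF1, and *Pik3ip1* encodes a transmembrane inhibitor of PI3K. No protein or phosphorylation was measured in these tables, so the mRNA levels stand alone.

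Each library was made from tdTomato+ cells of the lung of *BrafCAT*/+ mice, in which CRE switches on BRAFV600E together with tdTomato, and these mice descend from 1 targeted ES cell clone. CRE was delivered by an adenovirus that uses the *Sftpc* promoter, active in alveolar type 2 (AT2) pneumocytes. Mice were of a mixed C57BL/6, 129 and FVB background and 3 to 4 months old by the study's methods. Of the 23 libraries, 6 were genotype CAT/+ (BRAFV600E: 1 at 2 weeks, 3 at 6 weeks and 2 at 12 weeks post-initiation, p.i.), and 8 were CAT/+; HR/+, which adds the CRE-activated *Pik3ca* allele for PI3KαH1047R (2, 4 and 2 libraries at the same times). At 12 weeks p.i., 5 were CAT/+; PGC1a mutant/+ (BRAFV600E/PGC1αHet) and 4 were CAT/+; PGC1a mutant/mutant (BRAFV600E/PGC1αNull), from littermates that carry a floxed *Ppargc1a* allele. Mice taken at 12 weeks received a lower virus titer than those taken at 2 or 6 weeks, so titer and week cannot be told apart there. Libraries are individual animals by the study's methods, and p-values measure the spread between them.

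Values are the authors' normalized counts, which sum to 16433820 to 20287296 per library in the PI3Kα table and 7115752 to 9159566 in the PGC1α table. The depth in reads is unknown, and the tables were normalized apart, so no level is set across them. AT2 markers were high in most libraries: the mean log2 level of 10 AT2 markers was 14.25 to 15.76 in BRAFV600E and 13.69 to 14.54 in the PGC1α table, but reached down to 11.57 in BRAFV600E/PI3KαH1047R. Some libraries stood apart and are named beside the results they touch. The mean log2 level of 12 endothelial markers was 11.8, 11.7 and 12.15 in BRAFV600E/PI3KαH1047R replicates 1 and 2 at 2 weeks and replicate 1 at 6 weeks, above the 8.43 to 11.16 of the BRAFV600E libraries, and the same 3 libraries had the lowest AT2 levels, 11.57 to 13.33. They also had the highest mean log2 level of 8 fibroblast markers, 11.01 to 11.47 against 7.96 to 10.6 in the other 11 libraries, so wherever they are named below by their endothelial markers, fibroblast markers were high too. None of the 12 endothelial markers was at 0 in all libraries of a genotype. In the 12-week BRAFV600E/PI3KαH1047R pair, Y-linked genes went against the labelled sex in both libraries: *Kdm5d* had 502 normalized counts in the library labelled male and 4728 in the library labelled female, where the 4 other BRAFV600E/PI3KαH1047R libraries labelled male had 2089.9 to 4677. In the PGC1α table the endothelial level was 4.40 to 6.02 in PGC1αHet and 6.46 to 7.24 in PGC1αNull, with no overlap. In these sorted pools, fewer cells of a type and less RNA per cell cannot be told apart.

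The targeted genes were read first. *Pik3ca*, which encodes PI3Kα, had 3891 to 5933 normalized counts in BRAFV600E and 1376 to 4703 in BRAFV600E/PI3KαH1047R, with 8 of 8 of the latter below the BRAFV600E mean, and a gene-level count does not separate the mutant from the normal allele. Its log2 difference was -0.54 with weeks together (limma adjusted p = 0.730). At 12 weeks it was -1.25 (limma unadjusted p = 0.0195, adjusted p = 1.00), and -0.47 without BRAFV600E/PI3KαH1047R replicate 1, which had the lowest value, and -2.04 without replicate 2. *Ppargc1a*, which encodes the coactivator PGC1α and is itself a known FOXO1 target, had 349.5 to 1088 normalized counts in BRAFV600E and 51.9 to 415 in BRAFV600E/PI3KαH1047R, with 8 of 8 libraries below the BRAFV600E mean. The difference was -1.92 (SE 0.45) on the log2(normalized count + 1) scale, and limma gave an unadjusted p of 0.000652 and an adjusted p of 0.225. The ranges overlapped at 12 weeks, where BRAFV600E libraries had 408 and 349.5 and BRAFV600E/PI3KαH1047R libraries 75.5 and 415, a log2 difference of -1.09 (limma adjusted p = 1.00) that was 0.13 without replicate 1 and -2.31 without replicate 2 of the latter. In the PGC1α table *Ppargc1a* had 75.8, 170.2, 155, 199.5 and 561 normalized counts in PGC1αHet and 72.7, 38.0, 51.6 and 124 in PGC1αNull, a log2 difference of -1.51 (SE 0.50, limma adjusted p = 0.978). These ranges overlapped, and counts over the whole gene include exons outside any deleted part.

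Among the factors, *Foxo1* (chr3:52268337-52350109 in RefSeq on GRCm38.p6), the family member best known for carrying the insulin response, had a narrower spread over the BRAFV600E libraries than over the BRAFV600E/PI3KαH1047R libraries. BRAFV600E libraries had 2583 normalized counts at 2 weeks, 2988, 3041 and 3079.6 at 6 weeks, and 2862 and 3142 at 12 weeks. BRAFV600E/PI3KαH1047R libraries had 3763 and 3708 at 2 weeks, 3650.5, 2515, 3098 and 1872 at 6 weeks, and 1958 and 3363 at 12 weeks. The coefficient of variation was 6.88% over the 6 BRAFV600E libraries and 26.0% over the 8 BRAFV600E/PI3KαH1047R libraries, and the highest 3 values were those of the 3 libraries with high endothelial markers. The difference in spread was not tested, and *Insr* had the opposite order, 22.8% and 14.9%. With weeks together the log2 difference was -0.03 (95% interval -0.41 to 0.36, limma adjusted p = 0.984).

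*Foxo3* (chr10:42181845-42276695), whose product is the FOXO factor most often tied to stress and longevity programs, had a similar shape. BRAFV600E libraries had 1838 normalized counts at 2 weeks, 1609, 1937 and 1992 at 6 weeks, and 1851 and 1531 at 12 weeks. BRAFV600E/PI3KαH1047R libraries had 2016 and 2662 at 2 weeks, 2662, 1608, 2251 and 1377 at 6 weeks, and 1860.2 and 1396 at 12 weeks. Here too the values ran from below to above all BRAFV600E libraries, and the log2 difference was 0.11 (95% interval -0.27 to 0.48, limma adjusted p = 0.921). *Foxo4* (chrX:101254261-101260873), on the X chromosome, was counted at 25.0 to 174 in BRAFV600E (median 89.3) and 41.6 to 241 in BRAFV600E/PI3KαH1047R (median 82.5), with a log2 difference of 0.21 (95% interval -0.73 to 1.15, limma adjusted p = 0.938). The group order by mean log2 level put *Foxo3* lowest in BRAFV600E/PI3KαH1047R at 12 weeks (10.66) and highest in the same genotype at 2 weeks (11.18), and no pair of neighbours in that order was free of overlap. For *Foxo1* the same groups were lowest (11.33) and highest (11.87), and only the step from BRAFV600E at 6 weeks (11.57) to BRAFV600E/PI3KαH1047R at 2 weeks had no overlap.

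Neither receptor gene separated the genotypes. *Insr* (chr8:3150922-3279649) had 6856 normalized counts in the BRAFV600E library at 2 weeks, 4548, 3857 and 4007 at 6 weeks, and 4608 and 4597 at 12 weeks. In BRAFV600E/PI3KαH1047R it had 5832 and 4451 at 2 weeks, 4095, 4014, 4285 and 4554 at 6 weeks, and 5054 and 5702 at 12 weeks. The highest value was that of the single BRAFV600E library at 2 weeks, and the 6-week libraries of both genotypes were close together. The log2 difference with PI3KαH1047R was 0.01 (95% interval -0.31 to 0.33, limma adjusted p = 0.987). *Igf1r* (chr7:67952257-68233668) had 4253 to 6359 normalized counts in BRAFV600E (median 4586) and 3539 to 5154 in BRAFV600E/PI3KαH1047R (median 4759), and again the 2-week BRAFV600E library was the highest. Its log2 difference was -0.10 (95% interval -0.39 to 0.19, limma adjusted p = 0.902). These are the narrowest intervals of the 10 genes.

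**Figure D1:**
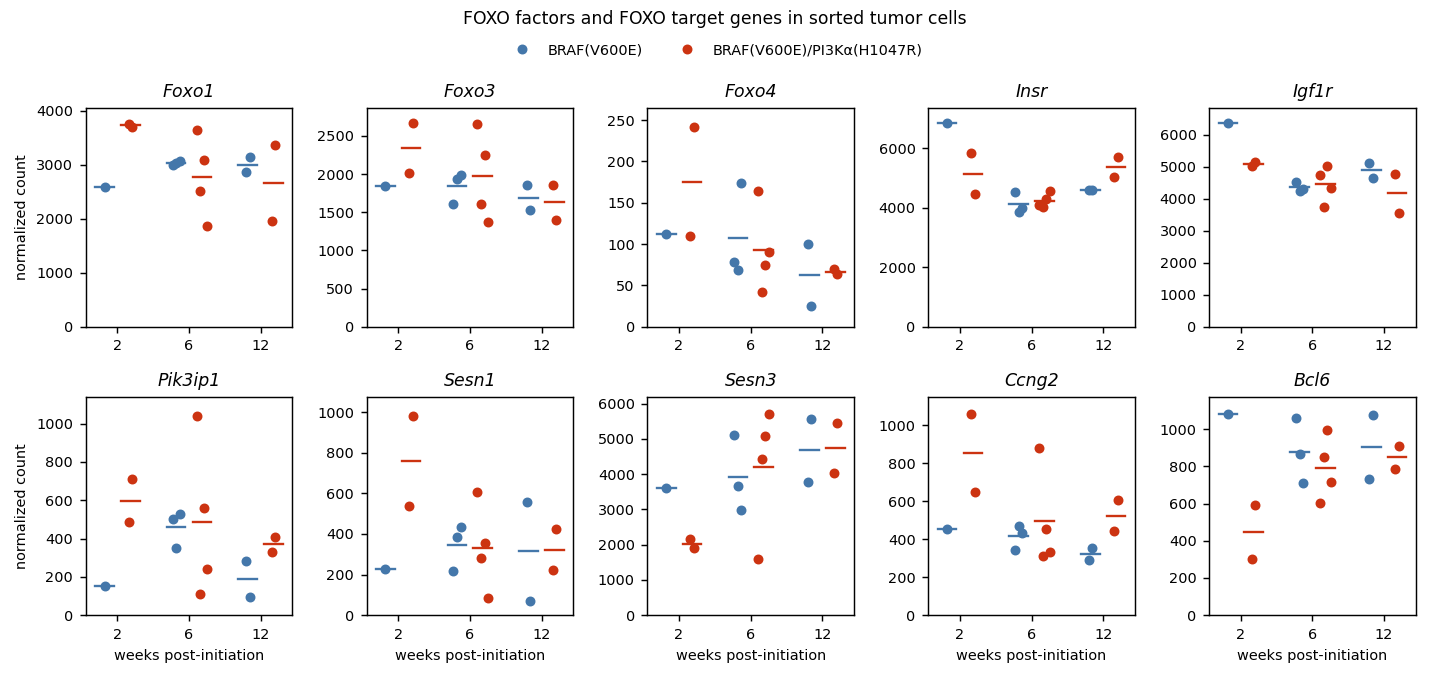
Normalized count (vertical axis, linear, from 0) of each FOXO factor and target against weeks post-initiation, with a point per library and a bar at each group's mean. BRAFV600E is blue and BRAFV600E/PI3KαH1047R red: at 2 weeks the red points lie at 303 and 592 for *Bcl6* and at 2164 and 1895 for *Sesn3*, below the blue point in both, and the red points at 6 weeks run from 1595 to 5701 for *Sesn3* but only from 4014 to 4554 for *Insr*.

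*Pik3ip1* (chr11:3319241-3342971), the PI3K inhibitor, was among the most variable members in both genotypes. BRAFV600E libraries had 150.2 normalized counts at 2 weeks, 500.4, 349 and 528 at 6 weeks, and 281 and 95.7 at 12 weeks. BRAFV600E/PI3KαH1047R libraries had 485 and 709 at 2 weeks, 1039.6, 113, 561 and 239.6 at 6 weeks, and 331 and 410.0 at 12 weeks. Values within a single genotype and week differed by more than the group means did. The log2 difference of 0.59 had a 95% interval of -0.43 to 1.62 (limma adjusted p = 0.828). Over leaving out single libraries this difference ran from 0.30 to 0.86.

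The sestrins, which restrain mTORC1 when stress or low AKT activity raises them, had their extremes in the libraries with high endothelial markers, low for *Sesn3* and high for *Sesn1*. *Sesn3* (chr9:14276301-14326134), a well-known FOXO target, had 3596 normalized counts in BRAFV600E at 2 weeks, 5109, 3670.3 and 2984 at 6 weeks, and 3772 and 5575 at 12 weeks. In BRAFV600E/PI3KαH1047R it had 2164 and 1895 at 2 weeks, 1595, 4442, 5089.7 and 5701 at 6 weeks, and 4042 and 5454 at 12 weeks. The 3 lowest of all 14 values were those of the 3 libraries with high endothelial markers, and the 5 other BRAFV600E/PI3KαH1047R libraries, at 4042 to 5701, lay within or just above the BRAFV600E range. With all libraries the log2 difference was -0.23 (95% interval -0.88 to 0.41, limma adjusted p = 0.892), and without those 3 libraries it was 0.29 (limma adjusted p = 0.863).

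*Sesn1* (chr10:41810574-41908436), which p53 also raises, had 229 normalized counts in BRAFV600E at 2 weeks, 216, 387 and 435 at 6 weeks, and 559.6 and 69.1 at 12 weeks. In BRAFV600E/PI3KαH1047R it had 537 and 979.9 at 2 weeks, 606, 282, 354 and 85.3 at 6 weeks, and 221 and 423 at 12 weeks. The highest 2 values were again from libraries with high endothelial markers, and both 12-week BRAFV600E libraries lay at opposite ends of their genotype's range. The log2 difference was 0.44 (95% interval -0.67 to 1.55, limma adjusted p = 0.884), and -0.13 without the 3 libraries (limma adjusted p = 0.988). Over leaving out single libraries it ran from 0.06 to 0.73.

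*Ccng2* (chr5:93267573-93276231) encodes cyclin G2, a cyclin that is raised as cells leave the cycle and is repressed by PI3K signaling. BRAFV600E libraries had 454 normalized counts at 2 weeks, 341, 469 and 435 at 6 weeks, and 289 and 353 at 12 weeks. BRAFV600E/PI3KαH1047R libraries had 1058 and 651 at 2 weeks, 882, 310.1, 453 and 331 at 6 weeks, and 443 and 607 at 12 weeks. Only 4 libraries exceeded the BRAFV600E range, the 3 with high endothelial markers and replicate 2 at 12 weeks, whose sex label and Y-linked genes disagree. The log2 difference was 0.50 (95% interval -0.08 to 1.08, limma adjusted p = 0.742) with a mean of 592 ± 266 (SD, n = 8) against 390.1 ± 72.6 (SD, n = 6), and it was 0.11 without the 3 libraries (limma adjusted p = 0.968).

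*Bcl6* (chr16:23965050-23988866), a transcriptional repressor and FOXO target, was the member with the lowest values at 2 weeks relative to BRAFV600E. BRAFV600E libraries had 1079.7 normalized counts at 2 weeks, 1059, 864 and 711 at 6 weeks, and 732 and 1078 at 12 weeks. BRAFV600E/PI3KαH1047R libraries had 303 and 592 at 2 weeks, 603, 852, 994 and 717 at 6 weeks, and 785 and 912 at 12 weeks. Values below the BRAFV600E range came from the same 3 libraries with high endothelial markers. With weeks together the log2 difference was -0.41 (95% interval -0.92 to 0.11, limma adjusted p = 0.750), and without the 3 libraries it was -0.10 (limma adjusted p = 0.967).

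With weeks together, then, none of the 10 members had an adjusted p under 0.05 in limma's test, where 4 of 17558 genes did (0.0228%). None had an unadjusted p under 0.05 either, against 6.83% of all genes tested, and none had libraries of the genotypes that did not overlap, against 0.211% of all genes. The median log2 difference of the members was 0.06, beside 0.02 over all genes, with 6 members above 0 and 4 below. The endothelial level moved with the libraries that set the extremes. With it as a covariate no member passed the test either, and *Ccng2* had a log2 difference of 0.25 (limma adjusted p = 0.979). Over leaving out single libraries *Ccng2* ran from 0.36 to 0.61. Its unadjusted p in limma's test was under 0.05 without replicate 2 or replicate 4 of BRAFV600E/PI3KαH1047R at 6 weeks. Leaving out the 3 libraries brought *Ccng2*, *Pik3ip1*, *Sesn1* and *Bcl6* to within 0.13 of 0. *Foxo1* went from -0.03 to -0.24 (limma adjusted p = 0.893). These 3 include both 2-week BRAFV600E/PI3KαH1047R libraries and had the lowest AT2 levels. Week, AT2 level and endothelial level therefore cannot be told apart in that fit. Single libraries mattered too: leaving out 1 gave 0.06 to 0.73 for *Sesn1* and 0.30 to 0.86 for *Pik3ip1*.

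**Figure D2:**
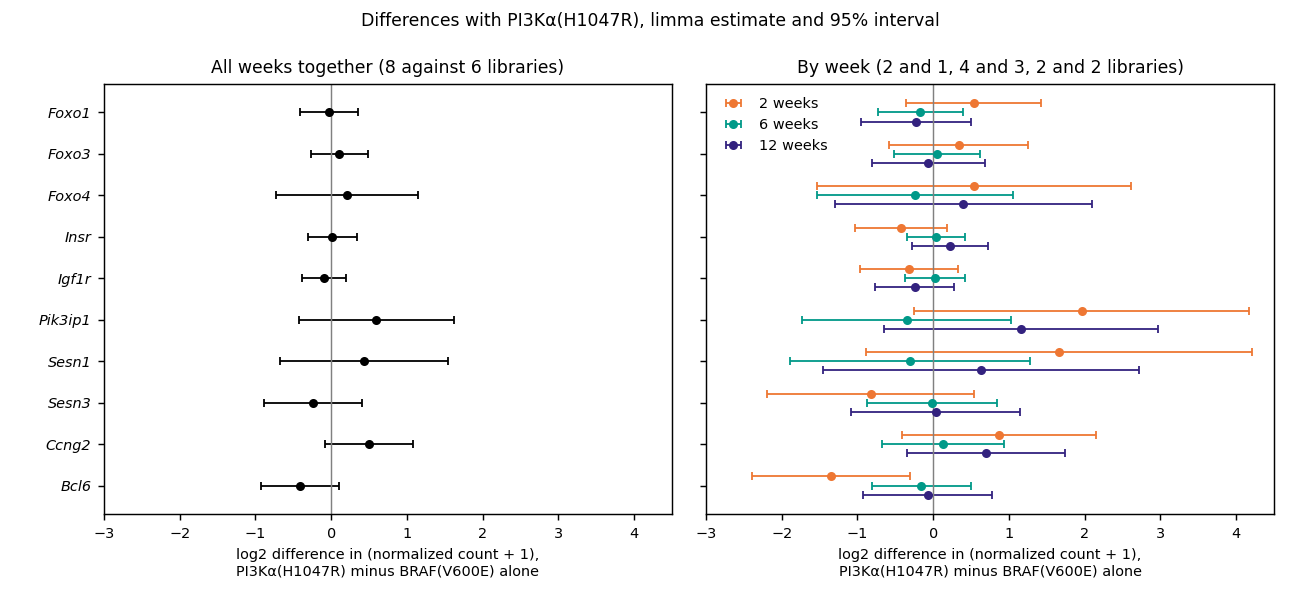
Difference in log2(normalized count + 1) between BRAFV600E/PI3KαH1047R and BRAFV600E for each member (horizontal axis), with limma's estimate as a point and its 95% interval as a bar, for all weeks together on the left and for 2, 6 and 12 weeks on the right. Every interval on the left crosses 0, and on the right only that of *Bcl6* at 2 weeks (-2.39 to -0.31) does not.

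By week, the comparison at 2 weeks set 2 BRAFV600E/PI3KαH1047R libraries, both with high endothelial markers, against a single BRAFV600E library, and relied on the spread shared with the other groups. The BRAFV600E library was female and both others male, by labels and Y-linked genes, so sex and genotype cannot be told apart within that week. Over all weeks the labels give 5 female and 1 male BRAFV600E libraries and 3 female and 5 male BRAFV600E/PI3KαH1047R libraries. *Bcl6* had a log2 difference of -1.35 (SE 0.48), with an unadjusted p of 0.0154 and an adjusted p of 0.247 in limma's test. It was the only member with an unadjusted p under 0.05, where 13.5% of all genes had one and 0.0171% had an adjusted p under 0.05. *Pik3ip1* had a log2 difference of 1.96 (95% interval -0.26 to 4.18), *Sesn1* of 1.66 (-0.89 to 4.20), *Ccng2* of 0.87 (-0.42 to 2.15) and *Sesn3* of -0.83 (-2.20 to 0.54). All 12 endothelial markers were higher and all 10 AT2 markers lower at 2 weeks, with median log2 differences of 2.73 and -2.55, and all 8 fibroblast and all 10 macrophage markers were higher too, with medians of 1.10 and 1.85. With the endothelial level as a covariate, *Bcl6* had a log2 difference of -0.71 (limma adjusted p = 0.812). The *Bcl6* value moved to -0.87 without BRAFV600E/PI3KαH1047R replicate 1 and to -1.83 without replicate 2.

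At 6 weeks, the time with the most libraries, no member had an unadjusted p under 0.05, against 4.24% of all genes, and 0.0228% of genes had an adjusted p under 0.05. The members' log2 differences lay between -0.35 (*Pik3ip1*, 95% interval -1.73 to 1.03) and 0.13 (*Ccng2*, -0.67 to 0.93). Those of *Insr* (0.04, -0.34 to 0.42) and *Igf1r* (0.02, -0.38 to 0.42) had the narrowest intervals. Replicate 1 held the lowest *Sesn3* and *Bcl6* and the highest *Foxo1*, *Foxo3*, *Foxo4*, *Pik3ip1*, *Sesn1* and *Ccng2* of the 4 BRAFV600E/PI3KαH1047R libraries. Without it *Sesn3* went from -0.01 to 0.40 and *Pik3ip1* from -0.35 to -0.87 on the log2 scale, with limma adjusted p = 0.996 for both. Over leaving out single libraries *Sesn3* ran from -0.21 to 0.40 and *Pik3ip1* from -0.87 to 0.20.

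At 12 weeks, no member passed either, against 3.76% of all genes by unadjusted p and 0.0114% by adjusted p. *Insr* had 5054 and 5702 normalized counts with PI3KαH1047R and 4608 and 4597 without, *Ccng2* had 443 and 607 against 289 and 353, and *Pik3ip1* had 331 and 410.0 against 281 and 95.7. These 3 members were those whose pairs did not overlap, where 29.2% of all genes had pairs that did not, and their log2 differences of 0.22, 0.70 and 1.16 had 95% intervals that cross 0. The *Pik3ip1* value was 1.93 without BRAFV600E replicate 1 and 0.39 without replicate 2. The change of the PI3KαH1047R difference between weeks was tested directly: from 2 to 6 weeks the largest were *Pik3ip1* (-2.31, limma adjusted p = 0.606), *Sesn1* (-1.96, limma adjusted p = 0.722) and *Bcl6* (1.19, limma adjusted p = 0.567). As fitted, no member had an unadjusted p under 0.05 there or from 6 to 12 weeks, where 8.95% and 2.87% of all genes had one. By adjusted p the share was 0.0% in both. From 2 to 6 weeks *Bcl6* ran from 0.71 to 1.68 over leaving out single libraries. Its unadjusted p was under 0.05 with no filter, quantile normalization or replicate number as a term. Without BRAFV600E/PI3KαH1047R replicate 1 at 6 weeks, those of *Bcl6*, *Pik3ip1* and *Sesn3* were, and from 6 to 12 weeks that of *Pik3ip1*.

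Within genotypes, the receptor gene *Insr* was lower at 6 than at 2 weeks in BRAFV600E, by a log2 difference of -0.73 (SE 0.26, limma unadjusted p = 0.0165, adjusted p = 0.537), which rests on the single 2-week library. *Igf1r* had a log2 difference of -0.54 there (95% interval -1.15 to 0.06). In this comparison 7.28% of all genes had an unadjusted p under 0.05 and 0.0% an adjusted one. From 6 to 12 weeks in BRAFV600E, no member had an unadjusted p under 0.05 (3.85% of all genes, and 0.0% by adjusted p), and *Pik3ip1* had the largest log2 difference, -1.46 (95% interval -3.11 to 0.20). Both 12-week libraries weighed on this: *Pik3ip1* was at -2.23 without replicate 1 and -0.69 without replicate 2. Without replicate 1, 3 members (*Foxo4*, *Pik3ip1* and *Sesn1*) had an unadjusted p under 0.05, with limma adjusted p of 0.752 to 0.757, in a fit where 1104 of 17555 genes had one.

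From 2 to 6 weeks in BRAFV600E/PI3KαH1047R, *Bcl6* went from 303 and 592 to 603 to 994 normalized counts, a log2 difference of 0.88 (SE 0.34, limma unadjusted p = 0.0236, adjusted p = 0.311), where 13.4% of all genes had an unadjusted p under 0.05 and 0.159% an adjusted one. The *Bcl6* value was 0.39 without replicate 1 at 2 weeks and 1.36 without replicate 2, and its unadjusted p was over 0.05 without the former, without replicate 3 at 6 weeks and with the endothelial level as a covariate. *Sesn3* had a log2 difference of 0.90 (95% interval -0.07 to 1.87) and *Ccng2* of -0.88 (-1.79 to 0.03). Of the 4 libraries at 6 weeks, replicate 1 lay with the 2-week libraries in both genes. Without it the *Sesn3* difference was 1.32 and passed the test (limma adjusted p = 0.0250), and *Ccng2* stood at -1.20 (limma adjusted p = 0.0706), in a fit that called 698 of 17564 genes where 28 were called with all libraries. The endothelial level was 11.7 and 11.8 at 2 weeks and 10.01 to 10.32 in the 3 libraries kept at 6 weeks. In the fit with all libraries, all 10 AT2 markers had an unadjusted p under 0.05 upward. With the endothelial level as a covariate, over all libraries, *Sesn3* had a log2 difference of 0.41 (limma adjusted p = 0.766). From 6 to 12 weeks no member had an unadjusted p under 0.05, against 4.81% of all genes and 0.0114% by adjusted p.

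**Figure D3:**
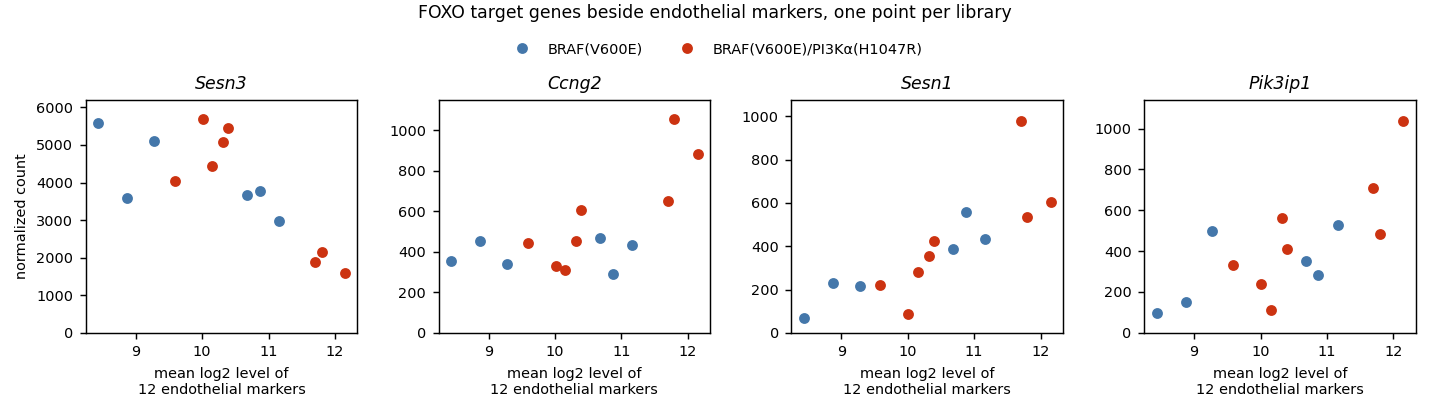
Normalized count of *Sesn3*, *Ccng2*, *Sesn1* and *Pik3ip1* (vertical axis, linear, from 0) against the mean log2 level of 12 endothelial markers (horizontal axis), with a point per library of the PI3Kα table, blue for BRAFV600E and red for BRAFV600E/PI3KαH1047R. The 3 red points at 11.7 to 12.15 have the lowest *Sesn3* (1595 to 2164) and the 3 highest values of *Ccng2* (651 to 1058).

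The wider pathway was read from 70 further genes in 8 lists: FOXO regulators, 6 sets of known FOXO targets and genes that FOXO represses. Of these, 65 were tested in the PI3Kα table. With weeks together 37 were higher and 28 lower with PI3KαH1047R, 4 had an unadjusted p under 0.05 (6.15%, beside 6.83% of all genes) and none an adjusted one. These 4 were *Ppargc1a* and 3 others. *Irs2*, which encodes the adaptor that couples the insulin receptor to PI3K and is a classic FOXO target, had 435.7 to 1198 normalized counts with PI3KαH1047R and 895 to 1828 without, with 8 of 8 libraries below the BRAFV600E mean. Its log2 difference was -0.80 (SE 0.25, limma unadjusted p = 0.00571, adjusted p = 0.500), and it was -0.78 without the 3 libraries with high endothelial markers. *Cited2*, a CBP/p300-binding coregulator, had a log2 difference of -0.90 (SE 0.28, limma adjusted p = 0.500). *Akt1*, the kinase gene itself, had 475 to 803 normalized counts against 285 to 504, a log2 difference of 0.49 (SE 0.18, limma adjusted p = 0.623). The median of the 65 genes was 0.08 on the log2 scale. By list the medians ran from -0.31 in the 4 receptor feedback genes, of which 4 were lower, to 0.49 in the 3 genes that FOXO represses.

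At 2 weeks 8 of the 65 genes had an unadjusted p under 0.05 (12.3%, beside 13.5% of all genes), none an adjusted one, and these 8 pointed both ways. *Tnfsf10*, which encodes the death ligand TRAIL, had 8764 and 12462 normalized counts against 525, a log2 difference of 4.31 (limma adjusted p = 0.141). *Klf4* had 2.46 and *Akt1* 1.25, while *Cdkn1a*, the gene of the CDK inhibitor p21, had -2.03 and *Erbb3*, a receptor that FOXO raises when PI3K is inhibited, had -1.41. *Cited2* (-1.76), *Ppargc1a* (-2.995) and *Ywhab* (0.88), which encodes a 14-3-3 protein that holds FOXO in the cytoplasm, were the others. At 6 weeks *Ppargc1a* (-1.98), *Prmt1* (-1.36), *Rbl2* (-0.65) and *Bbc3* (2.29) had an unadjusted p under 0.05. They were 6.15% of the genes tested, beside 4.24% of all genes, with adjusted p of 0.921 or more. *Bbc3* had only 5.81 to 27.5 normalized counts with PI3KαH1047R and 0 to 8.94 without, so its difference rests on few counts. At 12 weeks none of the 65 had an unadjusted p under 0.05, beside 3.76% of all genes.

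From 2 to 6 weeks in BRAFV600E/PI3KαH1047R, 11 of the 65 had an unadjusted p under 0.05 (16.9%, beside 13.4% of all genes), and *Cdkn1a* passed the adjusted test. It rose from 322 and 628 to between 1704 and 6334 normalized counts, a log2 difference of 3.05 (SE 0.49, limma adjusted p = 0.0379). Over leaving out single libraries its log2 difference ran from 2.57 to 3.53 and the adjusted p of *Cdkn1a* from 0.00153 to 0.245. Without BRAFV600E/PI3KαH1047R replicate 1 at 6 weeks, 6 of the wider genes passed (*Ccnd1*, *Cdkn1a*, *Erbb3*, *Klf6*, *Txnip* and *Ywhab*), in the same fit that called 698 genes. The call was lost without BRAFV600E replicate 2 at 6 weeks or replicate 1 at 12 weeks, and without BRAFV600E/PI3KαH1047R replicate 1 at 2 weeks, replicate 2, 3 or 4 at 6 weeks or either library at 12 weeks. *Ccnd1*, the cyclin D1 gene that FOXO represses, had a log2 difference of 1.67 (limma adjusted p = 0.0730) and *Erbb3* of 1.34 (limma adjusted p = 0.245). The other 8 were all lower at 6 weeks, at -0.71 to -1.82 on the log2 scale. They were *Ywhab*, the thioredoxin inhibitor *Txnip*, *Klf6*, the glucocorticoid-induced *Tsc22d3*, the mitophagy kinase gene *Pink1*, the autophagy gene *Gabarapl1*, *Lpin1* and the mitochondrial superoxide dismutase gene *Sod2*.

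FOXO proteins, like other forkhead factors, bind the core GTAAACA. It was searched on both strands (GTAAACA or its reverse complement TGTTTAC) in RefSeq promoters on GRCm38.p6. These promoters run from 250 bases before to 50 after the start site. Of the members, 8 of 10 matched the table, with 10 windows, and 1 window held the core. Of the 70 wider genes 57 matched, and 7 of 75 windows held it (9.33%), beside 1199 of all 32851 windows (3.65%). A match is a description of letters and not of a bound site. The sites in the gene strand of *Sesn1* and of wider genes with an unadjusted p under 0.05 in some comparison are shown with 10 bases on each side, the core in capitals, since they belong to the FOXO-linked genes whose values are given here.
Sesn1, chr10:41810586-41810612, plus strand, 23 bases after the start site: aaccttctacTGTTTACcagccttttg
Akt1, chr12:112675029-112675055, minus strand, 161 bases before: tctaccctctTGTTTACactcctggtg
Txnip, chr3:96557826-96557852, plus strand, 121 bases before: tggaggcctgGTAAACAagggccaagt
Mxi1, chr19:53329454-53329480, plus strand, 231 bases before: gcgcggagaaGTAAACAaaccgcgcgc
Bbc3, chr7:16310084-16310110, plus strand, 167 bases before: ctggcgggttTGTTTACaaacaatggg
The sites of *Txnip* and *Mxi1* carry GTAAACA and the other 3 its reverse complement. From 2 to 6 weeks in BRAFV600E/PI3KαH1047R, *Sesn1* had a log2 difference of -1.43 (limma adjusted p = 0.478) and *Txnip* of -1.08 (limma adjusted p = 0.258).

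The genes most like the factors in pattern were taken by Pearson correlation of log2(normalized count + 1) over the 14 libraries of the PI3Kα table, among 14206 genes with a mean of at least 40. *Foxo1* was closest to *Atxn7l3b* (r = 0.923), *Rab2a* (0.915) and *Reep5* (0.904). *Foxo3* was closest to *Myo1c* (0.896), *Rapgef2* (0.887) and *Kcnmb1* (0.870), and *Foxo4* to *Spire1* (0.927), *Btbd8* (0.917) and *Snx18* (0.913). The libraries share genotypes, weeks and the spread in endothelial level, so these values describe likeness over these 14 libraries alone.

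In the 12-week PGC1α comparison, no member passed the test, and for *Foxo1* and *Foxo3* the libraries fell into sets that cut across genotype. *Foxo3* had 363, 373, 919, 832 and 462 normalized counts in PGC1αHet replicates 1 to 5 and 356, 699.8, 696 and 373 in PGC1αNull replicates 1 to 4. *Foxo1* had 735, 776, 1079.9, 1058 and 631 in PGC1αHet and 757, 1077, 1054 and 637 in PGC1αNull. PGC1αHet replicates 3 and 4 and PGC1αNull replicates 2 and 3 had the high values of both genes, and no library lay between 462 and 696 for *Foxo3* or between 776 and 1054 for *Foxo1*. These same 4 libraries had the negative loadings on the first principal component of all genes, which held 37.3% of the variance. The sets ran into each other there, with PGC1αNull replicate 3 at -0.0635 and PGC1αHet replicate 2 at 0.0483, in a range of -0.547 to 0.527. The labels do not name a batch that would match the 4 libraries. The log2 differences of PGC1αNull from PGC1αHet were 0.04 for *Foxo1* (95% interval -0.48 to 0.56) and -0.11 for *Foxo3* (-0.85 to 0.63), both with a limma adjusted p of 0.998. *Foxo4* had 23.7 to 43.1 normalized counts in PGC1αHet and 13.5 to 35.9 in PGC1αNull (log2 difference -0.40, limma adjusted p = 0.998). Leaving out single libraries gave -0.555 to -0.107 for *Foxo4*.

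*Sesn3* was the member with the widest spread in this table. It had 1266, 1311, 1841, 980.4 and 4668 normalized counts in PGC1αHet and 1276, 840.4, 889 and 4312 in PGC1αNull. PGC1αHet replicate 5 and PGC1αNull replicate 4 stood far above the rest within both genotypes, and both were labelled male. The third library labelled male, PGC1αHet replicate 3, had the next highest value. With labelled sex as a factor the genotype difference of *Sesn3* was -0.01 on the log2 scale (limma adjusted p = 0.999), and the part of sex in its level was not tested. In the PI3Kα table the single BRAFV600E library labelled male had the lowest *Sesn3* of its genotype, 2984, while replicates 3 and 4 of BRAFV600E/PI3KαH1047R at 6 weeks, also labelled male, had the highest of their group, 5089.7 and 5701, and both 2-week libraries of that genotype, male too, were among the 3 lowest of the table at 2164 and 1895. The log2 difference by PGC1α genotype was -0.25 (95% interval -1.35 to 0.85, limma adjusted p = 0.998), and -0.42 without the pair of high libraries (limma adjusted p = 1.00). Leaving out PGC1αHet replicate 5 alone gave 0.11 and PGC1αNull replicate 4 alone -0.78. With the endothelial level as a covariate the *Sesn3* difference was -2.68 (limma adjusted p = 0.737), and *Sesn3* was the only member with an unadjusted p under 0.05. The endothelial level did not overlap between the genotypes, so this covariate can hardly be told apart from genotype.

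*Insr* had 1392, 1266, 1187, 1193 and 1324 normalized counts in PGC1αHet and 947, 988, 990.3 and 1202 in PGC1αNull. All PGC1αNull libraries but replicate 4 lay below all PGC1αHet libraries, and the log2 difference was -0.31 (95% interval -0.69 to 0.08, limma adjusted p = 0.998). *Sesn1* had 83.2, 23.4, 56.4, 57.4 and 83.6 in PGC1αHet and 89.3, 67.6, 87.2 and 127 in PGC1αNull, a log2 difference of 0.69 (95% interval -0.17 to 1.55, limma adjusted p = 0.998). With the endothelial level as a covariate the *Sesn1* difference was -0.50 (limma adjusted p = 0.864), and the endothelial level itself did not overlap between the genotypes, so the covariate and the genotype can hardly be told apart. *Ccng2* had 239.5 to 369 normalized counts in PGC1αHet and 147 to 269 in PGC1αNull (log2 difference -0.35, 95% interval -0.89 to 0.19). Leaving out single libraries gave -0.436 to -0.147 for *Ccng2*. *Igf1r* (-0.20), *Pik3ip1* (0.11) and *Bcl6* (-0.06) had 95% intervals that cross 0 as well.

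As fitted, none of the 10 members had an unadjusted p under 0.05 in the PGC1α comparison, against 3.83% of all 17424 genes tested. None had an adjusted p under 0.05 (0.0% of all genes), and none had genotypes that did not overlap (1.4% of all genes). The median log2 difference of the members was -0.16, beside 0.01 over all genes. Of the wider lists 5 of 65 genes had an unadjusted p under 0.05 (7.69%). Besides *Ppargc1a* these were *Crebbp*, the CBP acetyltransferase gene (-0.62), *Sgk1*, a kinase that phosphorylates FOXO as AKT does (0.67), *Pdk4*, a FOXO and PGC1α target that encodes an inhibitory kinase of pyruvate dehydrogenase (-1.78), and the MAX dimerization gene *Mxi1* (0.74). All had a limma adjusted p of 0.998 apart from *Ppargc1a* at 0.978.

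**Figure D4:**
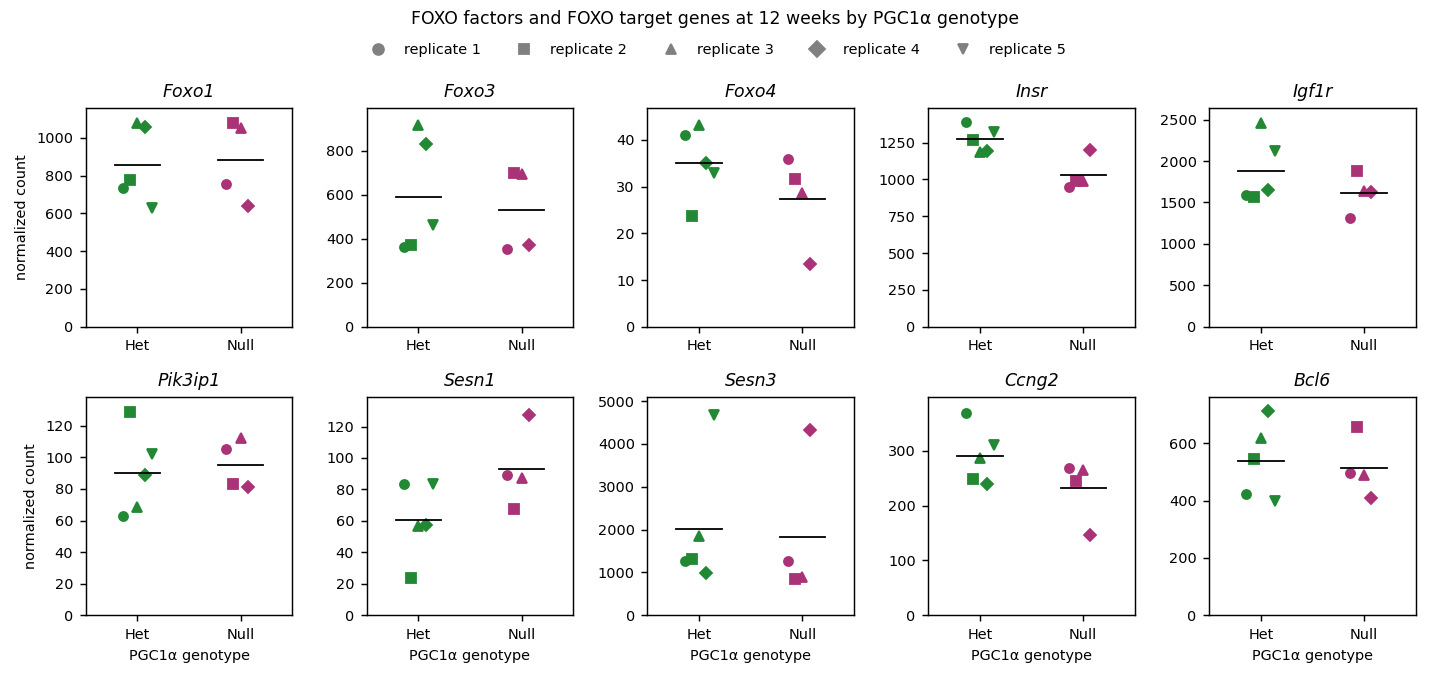
Normalized count (vertical axis, linear, from 0) of each member in the 12-week BRAFV600E/PGC1αHet (green, 5 libraries) and BRAFV600E/PGC1αNull (purple, 4 libraries) tumors. Marker shapes give replicate numbers, which were not taken to pair the animals, and a bar marks each group's mean. *Foxo1* and *Foxo3* form a high and a low set in both genotypes, and *Sesn3* is at 4668 and 4312 in a single library of each.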

How the data were processed

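The libraries came from sorted tdTomato+ cells and a Nugen low-input kit. The deposited signal values are the authors' normalized counts, made from Salmon estimates with DESeq2 in Galaxy; the submitters' processing notes name GRCm38, and annotation and versions are not given in the sources used here. Strand use is not stated. The deposited comparison tables hold the authors' own means, fold changes, errors and p-values and were not used. Genes with a mean of at least 10 were tested by limma 3.58.1 (trend, two-sided, R 4.3.3) after adding a pseudocount of 1 and taking log2, with Benjamini-Hochberg adjustment over each table and a threshold of 0.05. Genotype was fitted over all weeks, following the study's methods, or as a mean per genotype and week. Replicate numbers were not taken to pair animals. Deviations of same-numbered replicates had correlations of -0.467 to 0.211. In the PI3Kα table at 12 weeks, 2 libraries per group force mirrored values (-0.146 and 0.146). The check therefore cannot show that animals were unpaired. Named genes were the members, *Pik3ca*, *Ppargc1a*, wider-list genes with an unadjusted p under 0.05 (at most 15 a comparison by smallest p), defining cell markers, and 3 genes nearest in pattern to each factor; *Kdm5d* was added after its values were seen. Members, lists and tests were chosen with earlier results of these data known. The fits were tested on simulated data. Alternatives were a pseudocount of 4, a mean of at least 40, no filter, quantile normalization, sex, week, endothelial level or replicate number as a term, the 6-week libraries alone, and leaving out libraries. Sequences are RefSeq's on GRCm38.p6. Python 3.11.15, pandas 2.3.3 and matplotlib 3.10.9 were used.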

Additional observations from a re-analysis of the deposited data

Results flagged for a closer look

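Of 50 combinations of a member with a genotype, or with BRAFV600E/PI3KαH1047R at 6 weeks, each of 4 to 8 libraries, 4 had a highest or lowest library far from the rest by Dixon's criterion, which chance alone passes in about 1 of 20 groups. *Insr* in the BRAFV600E library at 2 weeks had 6856 normalized counts, where the nearest of the other 5 had 4608. It is the only library of its genotype and week. *Insr* in PGC1αNull replicate 4 had 1202 normalized counts, and the nearest of the other 3 had 990.3. *Sesn3* had 4668 normalized counts in PGC1αHet replicate 5, with the nearest at 1841, and 4312 in PGC1αNull replicate 4, with the nearest at 1276. PGC1αNull replicate 4 was also the lowest of its genotype in *Foxo1* (637), *Foxo4* (13.5), *Ccng2* (147) and *Bcl6* (407), and PGC1αHet replicate 5 the lowest of its genotype in *Foxo1* (631) and *Bcl6* (400.0).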

How the results depend on the processing

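No member had an adjusted p under 0.05 in any of the comparisons as fitted, and the count of 0 held under every alternative run with 1 exception: without BRAFV600E/PI3KαH1047R replicate 1 at 6 weeks, 1 member (*Sesn3*) passed from 2 to 6 weeks in that genotype, so over leaving out single libraries the count ran from 0 to 1 there. That fit called 698 genes of 17564, where 28 were called with all libraries. With the replicate block the count of members was 0 with weeks together, by week and for PGC1α, so the block changed no member's call by adjusted p. Over all genes it changed the count called from 4 to 6 with weeks together. At 6 and 12 weeks that count went from 4 and 2 to 0. Of 2269 member values recomputed under 35 settings, 2206 moved by less than 1 SD and 141 took the other sign, 87 of these on leaving out a library. The endothelial level as a covariate moved the most values by 1 SD or more. *Cdkn1a*, from 2 to 6 weeks in BRAFV600E/PI3KαH1047R, lost its call with no filter (limma adjusted p = 0.0758), quantile normalization (0.0508) and labelled sex as a factor (0.127). The sex term in the PI3Kα table uses labels that go against the Y-linked genes in both 12-week BRAFV600E/PI3KαH1047R libraries. The PI3Kα table has a single BRAFV600E library at 2 weeks and 2 per genotype at 12 weeks, and the lone library is assumed to vary like the others. Leaving out that library left no comparison at 2 weeks. Leaving out both 12-week BRAFV600E/PI3KαH1047R libraries, and the settings without the 3 libraries with high endothelial markers or the pair with high *Sesn3*, which were chosen after seeing the data, changed no count. Depth in reads is unknown, so the precision of low genes such as *Foxo4* rests on the spread between libraries.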

Other observations

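Of the cell lists in the PGC1α table, the club cell markers (3 genes, mean log2 level) were 6.18 to 8.29 in PGC1αHet and 9.09 to 11.4 in PGC1αNull, and the lymphocyte markers (10 genes) 3.19 to 4.67 and 4.68 to 5.67. In the PI3Kα table the same levels overlapped between genotypes, at 8.05 to 10.5 and 7.17 to 10.5 for club cells and 4.598 to 7.13 and 4.70 to 6.62 for lymphocytes. Macrophage markers were 5.93 to 8.22 in BRAFV600E, 7.01 to 10.4 in BRAFV600E/PI3KαH1047R, 5.06 to 7.71 in PGC1αHet and 6.85 to 8.87 in PGC1αNull. Fibroblast markers were 8.41 to 10.6, 7.96 to 11.5, 3.42 to 5.51 and 5.17 to 7.40 in the same order, and neutrophil markers 5.00 to 6.64, 4.90 to 6.42, 4.22 to 6.74 and 5.55 to 6.29. Erythroid markers were 6.54 to 8.57, 5.41 to 7.70, 4.78 to 8.21 and 4.31 to 7.11, AT1 markers 10.8 to 12.5, 10.8 to 12.9, 9.19 to 9.78 and 9.53 to 10.03, and ciliated cell markers 2.82 to 4.21, 1.71 to 4.89, 2.32 to 3.93 and 3.22 to 4.70. Dissociation response genes were 8.50 to 9.82, 8.85 to 10.2, 10.6 to 11.6 and 10.1 to 11.5. None of these lists was tested against the members.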
